A study of Mus musculus with 8 samples.

Results

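Matricellular glycoproteins and their close relatives in the extracellular matrix were followed through the cells of mouse colon tumours. The genes were Spp1, Tnc, Postn, Sparc, Fn1, Thbs1, Thbs2, Tgfbi and Mgp, taken by gene symbol, and all 9 were found among the 20276 genes counted. The tumours had grown from tumour organoids that were transplanted orthotopically into the cecum wall of Zeb1 fl/fl mice. In 4 FibΔZeb1 mice a tamoxifen-inducible Cre recombinase removed Zeb1 from fibroblasts, and 4 Cre-negative FibCtrl mice kept it. Tamoxifen diet was given to every mouse of both groups, so the floxed Zeb1 alleles, the tumour genotype and the drug were common to all, and the Cre transgene was the difference. The labels name the driver Col1a1Cre-ERT2, whereas the methods of the study name Col1a2-CreERT2. In either case a collagen promoter sets which cells lose Zeb1. The ages of the mice were not given in the sources used here.

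Matricellular proteins are secreted into the extracellular matrix, where they bind collagens, growth factors and cell surface receptors such as integrins, and they tune adhesion and signalling more than they bear load. Most are sparse in resting adult tissue and rise in healing wounds and in tumour stroma. Fibronectin (Fn1) is itself fibril-forming, and matrix Gla protein (Mgp) is best known as an inhibitor of calcification, but both share the matrix with the others.

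Each mouse gave 1 plate of 384 wells, and transcripts were counted at their 3′ ends with unique molecular identifiers (UMIs). Fibroblast-gated cells (negative for EPCAM, CD45 and CD31), epithelial and immune cells shared each plate, so the sort set how many wells each class received. Between 981881 and 5905190 cellular transcripts were counted per plate. Of 3072 wells, 1831 were kept, and the classes were rebuilt from fixed markers without using the 9 genes. They held 147 fibroblast-like, 34 mesothelial-like, 169 macrophage-like, 256 neutrophil-like and 459 epithelial-like wells, named without the suffix from here on, with median depths of 18803, 22127, 8562, 1889 and 22368 transcripts per well. Levels are given in CPM, the counts of a class on a plate scaled to 1000000 transcripts, which for 3′ counts need no scaling by gene length. Plates with at least 5 wells of a class enter the levels, and n counts plates.

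The classes were named from fixed markers, so the levels of these markers describe the classes and are no check of the names. The 10 fibroblast markers summed to 44983 to 94259 CPM in fibroblast wells, to 38708 to 52064 CPM in mesothelial wells, which they do not set apart, and to 603 to 5652 CPM in macrophage wells. In fibroblast wells the 9 macrophage markers summed to 39.1 to 259 CPM and the 9 epithelial markers to 97.7 to 484 CPM. Fibroblast transcripts that other cells should lack were nevertheless counted everywhere. Col1a1, Col1a2, Col3a1 and Dcn stood in T cell wells at 2.52 to 3.44% of their fibroblast level, in macrophage wells at 2.15 to 2.92%, in neutrophil wells at 3.23 to 5.67% and in epithelial wells at 1.17 to 1.81%. A member at a similar share of its fibroblast level is read below as background and not as expression by that class. In sums over wells, fewer expressing cells and less RNA per cell cannot be told apart.

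The 9 genes lie on 9 different chromosomes. On GRCm38 (GENCODE M21) all are protein-coding genes, with Spp1 at chr5:104435118-104441050, Tnc at chr4:63959785-64047015, Postn at chr3:54361109-54391037, Sparc at chr11:55394500-55423183 and Fn1 at chr1:71585520-71653200. Thbs1 lies at chr2:118111876-118127133, Thbs2 at chr17:14665500-14694235, Tgfbi at chr13:56609523-56639562 and Mgp at chr6:136872435-136875823. RefSeq promoters of the GRCm38.p6 assembly were matched for 6 of the 9 genes, and the 250 bases before each start were searched on both strands. These 6 genes had 9 promoters. A gene counts below if any of its promoters matched, whereas the shares of all promoters count single promoters, so the measures are not alike. The motif CACCTG, a core sequence to which ZEB factors bind, was present before 1 of these 6 genes (Spp1) and in 17.2% of all 32851 promoters of this length. The AP-1 motif TGANTCA was found before 0 of the 6 genes and in 6.75% of all promoters, and TATAAA before 4 of them and in 12.4% of all promoters. The upstream sequences of those 4 genes (Spp1, Tnc, Postn and Thbs2) are shown because they hold the matches. Capitals mark CACCTG or TATAAA read on either strand, and each sequence runs 5′ to 3′ on the strand of its gene. A match in these letters is a description and not a binding site.
Spp1, plus strand, chr5:104434861-104435110: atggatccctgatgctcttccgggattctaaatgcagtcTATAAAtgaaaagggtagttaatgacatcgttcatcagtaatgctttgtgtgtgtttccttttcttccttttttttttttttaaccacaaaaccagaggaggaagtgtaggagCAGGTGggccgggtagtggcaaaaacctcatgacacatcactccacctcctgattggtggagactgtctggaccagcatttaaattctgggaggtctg
Tnc, minus strand, chr4:64047016-64047265: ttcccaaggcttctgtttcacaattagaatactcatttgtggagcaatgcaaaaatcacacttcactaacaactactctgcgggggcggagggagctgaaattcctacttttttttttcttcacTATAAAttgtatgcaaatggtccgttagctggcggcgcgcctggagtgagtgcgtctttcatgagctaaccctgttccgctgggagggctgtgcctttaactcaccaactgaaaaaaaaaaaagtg
Postn, plus strand, chr3:54360857-54361106: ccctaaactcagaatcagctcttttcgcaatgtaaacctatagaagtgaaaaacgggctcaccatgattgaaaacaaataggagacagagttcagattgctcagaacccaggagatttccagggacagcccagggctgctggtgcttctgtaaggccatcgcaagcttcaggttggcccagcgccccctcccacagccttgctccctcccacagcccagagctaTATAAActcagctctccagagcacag
Thbs2, minus strand, chr17:14694263-14694512: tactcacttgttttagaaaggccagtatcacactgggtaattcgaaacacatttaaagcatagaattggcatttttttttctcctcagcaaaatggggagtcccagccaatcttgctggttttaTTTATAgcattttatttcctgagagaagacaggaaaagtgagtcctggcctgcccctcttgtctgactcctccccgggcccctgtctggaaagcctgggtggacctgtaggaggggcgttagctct

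Together the 9 genes took a larger mean share of the transcriptome in fibroblast wells than in the other classes compared. They made up 3.63% ± 0.79 (SD, n = 7) of fibroblast transcripts, with the lowest plate at 2.91% and the highest at 4.96%. Mesothelial wells stood at 2.05% ± 0.28 (SD, n = 2) and macrophage wells at 1.06% ± 0.34 (SD, n = 7). Neutrophil wells gave 0.287% ± 0.119 (SD, n = 7), epithelial wells 0.223% ± 0.0742 (SD, n = 8) and T cell wells 0.117% ± 0.0654 (SD, n = 8). Pericyte wells stood at 2.57% ± 0.96 (SD, n = 2), and their higher plate, at 3.25%, lay above the lowest fibroblast plate. Ranked by mean level among all 20276 genes in fibroblast wells, Sparc was number 5, Fn1 6, Mgp 8 and Spp1 16. The other members ranked lower there, with Postn at 92, Thbs1 at 128, Thbs2 at 131, Tnc at 289 and Tgfbi at 3871.

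**Figure D1:**
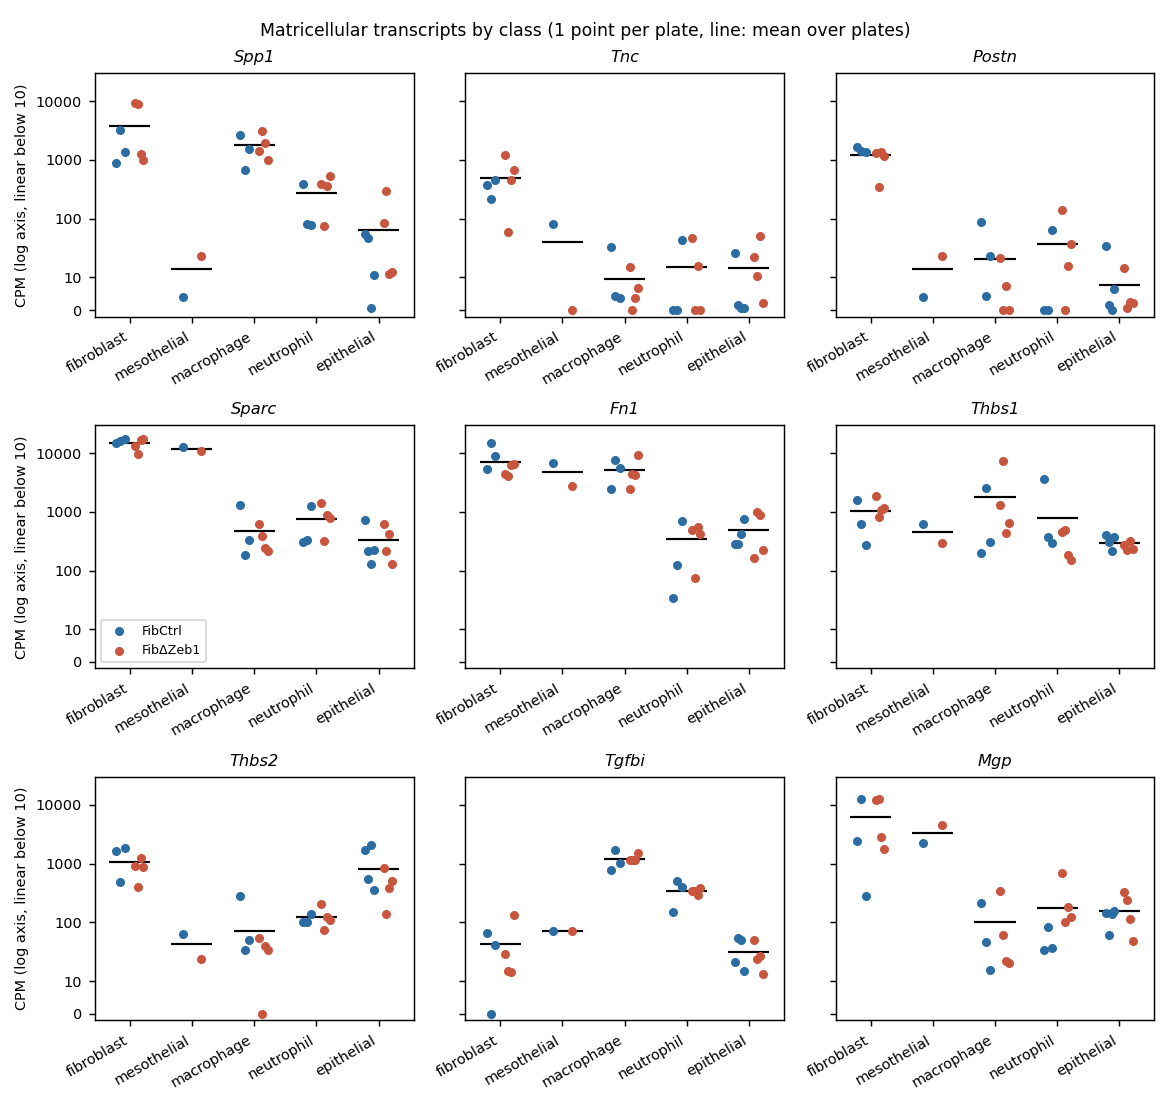
Level of each of the 9 genes in CPM (symmetric log axis, linear below 10) in fibroblast, mesothelial, macrophage, neutrophil and epithelial wells. Each point is a plate with at least 5 wells of the class, coloured by genotype, and the line is the mean over plates. Spp1 and Fn1 are high in fibroblast and macrophage wells, Tgfbi in macrophage wells, and Postn in fibroblast wells.

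Collagen partners were expressed by both mesenchymal classes. Sparc, which binds collagen and is needed for orderly collagen fibrils, was the most abundant member in fibroblast wells. Its lowest, median and highest plates there were 9738, 16362 and 17677 CPM (mean 15162 ± 2806, SD, n = 7). The 2 mesothelial plates, FibCtrl replicate 3 and FibΔZeb1 replicate 4, gave 12574 and 10784 CPM, above only the lowest fibroblast plate. That lowest plate, FibΔZeb1 replicate 2, had 6 fibroblast wells. On the 2 mesothelial plates themselves, Sparc was higher in fibroblast wells on 2 of 2. Macrophage, neutrophil and epithelial wells held 3.08%, 4.99% and 2.22% of the fibroblast level, close to the shares of the collagens. Mgp, a small vitamin K-dependent protein of the matrix, varied far more between mice, from 279 CPM through a median of 2801 CPM to 12559 CPM in fibroblast wells. Mesothelial wells gave 2236 and 4491 CPM of Mgp, within that range, and its macrophage and epithelial levels were 1.63% and 2.43% of the fibroblast mean. Every mesothelial plate lay above every immune and epithelial plate in both genes, whereas the lowest fibroblast plate in Mgp (FibCtrl replicate 4) lay among them.

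Fibronectin was shared between fibroblasts, mesothelial cells and macrophages. Fn1 ranged from 4063 through a median of 6221 to 14652 CPM in fibroblast wells (mean 7174 ± 3666, SD, n = 7). Macrophage wells ranged from 2467 through 4351 to 9154 CPM (mean 5136 ± 2513, SD, n = 7), which is 71.6% of the fibroblast level in a class where the collagens reached at most 2.92%. The 2 mesothelial plates stood at 6781 and 2792 CPM. These 3 classes overlapped, while epithelial wells, at 162 to 988 CPM, and neutrophil wells, at 33.9 to 693 CPM, lay below every plate of the 3. Epithelial wells still held 6.97% of the fibroblast level, where the collagens and Dcn reached at most 1.81%. Neutrophil wells held 4.73%, among their collagen shares. Whether epithelial cells express Fn1 was not tested. In macrophage wells Fn1 was number 11 of all genes by mean level.

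Among the 5 classes, periostin and tenascin-C were the most restricted. Postn, which binds collagen networks and is a marker of activated fibroblasts, was at 352, 1355 and 1662 CPM in the lowest, median and highest fibroblast plates (mean 1233 ± 417, SD, n = 7). Over all 34 mesothelial wells 9 Postn transcripts were counted (9.45 CPM, exact Poisson 95% interval 4.32 to 17.9), and macrophage, neutrophil and epithelial wells stood at 1.68%, 2.97% and 0.629% of the fibroblast mean. No plate of another of the 5 classes reached the lowest fibroblast plate. Pericyte wells, outside these 5 classes, gave 1857 and 1917 CPM on the 2 plates with enough of them. Tnc, a large glycoprotein that loosens adhesion to fibronectin, was at 58.7, 457 and 1232 CPM in fibroblast wells (mean 497 ± 379, SD, n = 7). Its macrophage, neutrophil and epithelial levels were 1.90%, 3.03% and 2.86% of that, where the collagens and Dcn in epithelial wells reached at most 1.81%, and the mesothelial plates gave 80.1 and 0 CPM. Pericyte wells gave 336 and 261 CPM of Tnc on the same 2 plates as for Postn, within the fibroblast range.

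Osteopontin joined fibroblasts with macrophages and was nearly missing from mesothelial wells. Spp1 encodes this secreted phosphoprotein, which binds integrins and CD44. Fibroblast wells ranged from 884 through 1355 to 9517 CPM (mean 3764 ± 3855, SD, n = 7), and macrophage wells from 687 through 1519 to 3142 CPM (mean 1767 ± 886, SD, n = 7). These ranges overlapped, and every macrophage plate lay above every neutrophil plate, where Spp1 was at 74.9 to 534 CPM. The 2 mesothelial plates stood at 4.0 and 23.4 CPM, from 2 and 3 transcripts, and all mesothelial wells together gave 9 transcripts (9.45 CPM, exact Poisson 95% interval 4.32 to 17.9). Their median depth was above that of fibroblast wells. Epithelial wells gave 0.729 to 295 CPM, or 1.72% of the fibroblast mean.

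The thrombospondins, related secreted glycoproteins that restrain angiogenesis and bind CD36 and CD47, went different ways. Thbs1 stood in macrophage wells at 203, 659 and 7281 CPM (lowest, median and highest of 7 plates) and in fibroblast wells at 272, 1073 and 1870 CPM. The highest macrophage value came from FibΔZeb1 replicate 2, with only 5 wells. Neutrophil wells gave 149 to 3628 CPM, epithelial wells 219 to 409 CPM and the mesothelial plates 618 and 296 CPM of Thbs1, so that all 5 classes overlapped.
Thbs2 was instead shared between fibroblast and epithelial wells. Fibroblast wells ranged from 396 through 915 to 1828 CPM (mean 1051 ± 548, SD, n = 7) and epithelial wells from 141 through 529 to 2080 CPM (mean 826 ± 704, SD, n = 8). The epithelial level was 78.6% of the fibroblast one where the collagens stood at 1.17 to 1.81%, and 62.6% of all Thbs2 transcripts in kept wells lay in epithelial wells against 23.8% in fibroblast wells. T cell wells, with 10.2% of the fibroblast Thbs2 level, and neutrophil wells, with 11.7%, were above the collagen shares, and macrophage wells gave 6.74%. Those shares gauge only fibroblast transcripts in other wells, whereas most Thbs2 lay in epithelial wells. They therefore set no background for Thbs2, and whether these immune classes express it was not tested. Mesothelial plates stood at 64.0 and 23.4 CPM.

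Tgfbi was high in macrophages and low in fibroblasts. It encodes a secreted integrin ligand with the fasciclin domains that periostin also carries, and it was named for its induction by TGFβ. Macrophage wells gave 780, 1143 and 1685 CPM (lowest, median and highest; mean 1209 ± 302, SD, n = 7) and neutrophil wells 153, 350 and 515 CPM (mean 348 ± 110, SD, n = 7). Fibroblast wells stood at 0, 29.1 and 132 CPM (mean 42.6 ± 45.0, SD, n = 7), mesothelial wells at 72.1 and 70.2 CPM, and epithelial wells at 13.2 to 53.3 CPM. Every macrophage plate lay above every neutrophil plate, and every neutrophil plate above every fibroblast, mesothelial and epithelial plate. Of all Tgfbi transcripts in kept wells, 67.4% lay in macrophage wells, which were 169 of the 1831 wells.

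**Figure D2:**
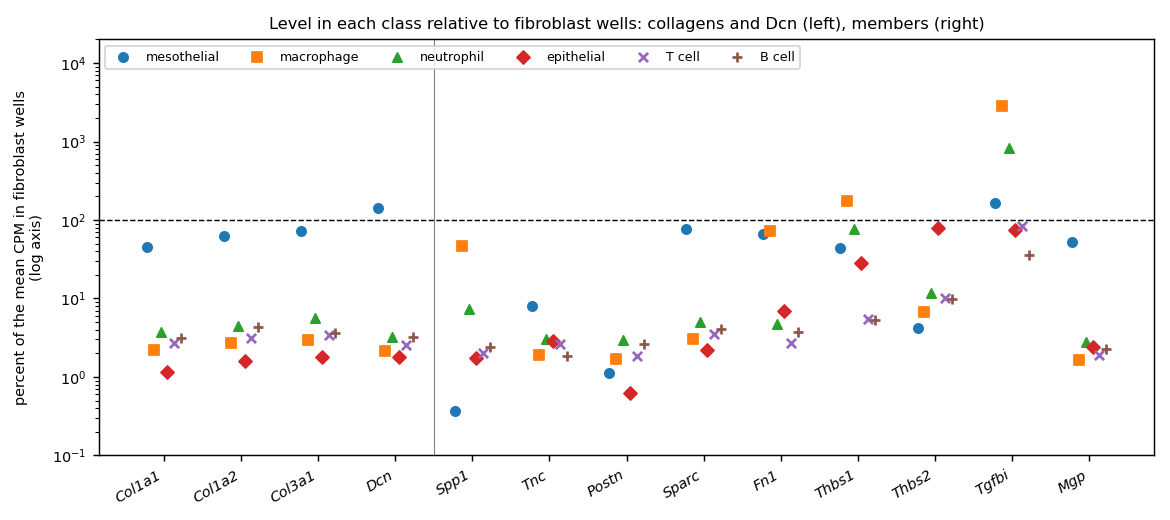
Mean CPM of each gene in mesothelial, macrophage, neutrophil, epithelial, T cell and B cell wells as a percent of its mean in fibroblast wells (log axis). Col1a1, Col1a2, Col3a1 and Dcn at the left show what fibroblast transcripts reach in other wells, 1.17 to 5.67% outside mesothelial wells. Sparc, Mgp, Postn and Tnc lie near these shares in immune and epithelial wells, while Fn1, Spp1, Thbs1 and Tgfbi lie far above them in macrophages and Thbs2 in epithelial wells.

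Differences between classes were tested with edgeR's quasi-likelihood test on sums per plate and class, with the plate as a term and Benjamini-Hochberg adjustment over 9174 genes at a threshold of 0.05. The classes were built from the same wells, without the 9 genes but with genes that vary with them. Against mesothelial wells, 3 of the 9 genes were higher in fibroblast wells, against 1.37% of all genes, and 0 were lower, against 2.13%. Spp1 was higher by 7.53 ± 1.35 (log2 ± SE, adjusted p = 0.000402), Postn by 6.64 ± 0.89 (adjusted p = 6.24e-06) and Thbs2 by 4.70 ± 0.72 (adjusted p = 5.12e-05). Tnc, at 2.31 ± 0.91, did not pass (adjusted p = 0.206), though it was called without FibCtrl replicate 3 (11.4, edgeR adjusted p = 0.0397), where the mesothelial plate left had 0 Tnc transcripts and the value is no bound. Nor did Fn1 pass, at 0.92 ± 0.60, Thbs1 at 1.23 ± 0.80, Sparc at -0.05 ± 0.44, Mgp at -0.11 ± 0.71 or Tgfbi at -0.09 ± 0.64. In CPM, Tnc, Fn1, Thbs1 and Sparc were each higher in fibroblast wells on 2 of 2 plates, and Mgp and Tgfbi on 1 of 2. The median over the 9 genes was 1.23, against -0.00 over all genes tested. This comparison rests on the 2 mesothelial plates, and with at least 10 wells required per plate and class, which leaves 1 of them, Postn was at 4.58 (adjusted p = 0.670). With classes set by summed markers instead of clusters, Tnc and Fn1 were called as well, at 2.94 and 1.47.

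Against macrophage wells, 5 of the 9 genes were higher in fibroblast wells, against 20.3% of all genes, and 1 was lower, against 18.0%. Postn was higher by 6.67 ± 0.49, Tnc by 6.06 ± 0.68, Mgp by 6.05 ± 0.56, Sparc by 5.54 ± 0.35 and Thbs2 by 4.43 ± 0.40 (log2 ± SE), each on 7 of 7 plates. Tgfbi was lower on 7 of 7 plates (log2 -4.51 ± 0.40, edgeR adjusted p = 5.74e-12). Spp1 at 0.83 ± 0.52 (adjusted p = 0.222), Fn1 at 0.61 ± 0.36 (adjusted p = 0.192) and Thbs1 at -0.08 ± 0.50 (adjusted p = 0.928) did not pass, and they were higher in fibroblast wells on 4, 5 and 4 of the 7 plates. The sign of the Thbs1 difference turned with the scaling, to 0.08 with size factors in place of TMM. The median over the 9 genes was 4.43, against 0.02 over all genes.

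Against neutrophil wells, 8 of the 9 genes were higher in fibroblast wells, against 29.4% of all genes. Tgfbi was the 1 lower gene (log2 -2.65 ± 0.41, on 6 of 6 plates), against 18.2% of all genes lower. The higher ones reached from 1.70 ± 0.56 for Thbs1 (edgeR adjusted p = 0.0115) to 5.15 ± 0.52 for Postn, with Spp1 at 3.51 ± 0.60. Leaving out FibΔZeb1 replicate 1 or replicate 3 ended the call of Thbs1 (adjusted p = 0.0687 and 0.0555). The median was 4.49, against 0.36 over all genes, so all genes together were shifted the same way, though by less.

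Against epithelial wells all 9 genes were called higher in fibroblast wells, against 21.6% of all genes, and 0 lower, against 23.0%. Postn led with 8.20 ± 0.46, followed by Spp1 at 6.61 ± 0.61 and Sparc at 6.03 ± 0.34. At the other end stood Thbs2, with 0.92 ± 0.33 (edgeR adjusted p = 0.0221) and higher levels on 5 of 7 plates, and Tgfbi, with 0.96 ± 0.39 (adjusted p = 0.0429) and higher levels on only 3 of 7 plates. Leaving out FibCtrl replicate 1 or 4 or FibΔZeb1 replicate 4 ended the call of Tgfbi, whose value was 0.44 without the last of these. Thbs2 lost its call without FibCtrl replicate 4, where its value was 0.60, and without FibΔZeb1 replicate 2, 3 or 4. The median was 5.13, against -0.15 over all genes.

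Within the myeloid cells, 4 of the 9 genes were higher in macrophage than in neutrophil wells, against 15.9% of all genes, and 2 were lower, against 8.95%. Fn1 was higher by 3.90 ± 0.43, Spp1 by 2.68 ± 0.58, Tgfbi by 1.87 ± 0.36 and Thbs1 by 1.78 ± 0.56 (log2 ± SE), each on 6 of 6 plates, and the adjusted p of Thbs1 in edgeR's test was 0.0167. Sparc (-1.05 ± 0.32) and Thbs2 (-1.33 ± 0.46) were lower in macrophages, where the collagen shares were also below those of neutrophil wells. The call of Thbs1 ended without FibCtrl replicate 3, FibΔZeb1 replicate 1 or FibΔZeb1 replicate 2. That of Sparc ended without FibCtrl replicate 4 or FibΔZeb1 replicate 4, and that of Thbs2 without FibCtrl replicate 4 or any single FibΔZeb1 plate. The median over the 9 genes was -0.96, against 0.23 over all genes.

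Shares of wells with a transcript were compared after thinning each well to 1000 transcripts, which left 144 fibroblast, 34 mesothelial, 163 macrophage, 233 neutrophil, 437 epithelial and 177 T cell wells. Intervals are exact binomial 95% intervals over the pooled wells of all plates and hold no spread between mice. Spp1 was counted in 33.3% of fibroblast wells (25.7 to 41.7%) and 38.7% of macrophage wells (31.1 to 46.6%), against 6.78% of T cell wells (3.55 to 11.5%). Tgfbi was counted in 44.2% of macrophage wells and 26.6% of neutrophil wells, against 4.17% of fibroblast wells and 2.26% of T cell wells. Thbs2 was counted in 52.1% of fibroblast wells and 36.6% of epithelial wells (32.1 to 41.3%), against 16.9% of T cell wells (11.7 to 23.3%). Whether these shares differ between classes beyond the spread between mice was not tested, and T cell wells set no background for Thbs2.
Postn was counted in 56.2% of fibroblast wells and in 0 of 34 mesothelial wells (exact upper bound 10.3%), while Sparc was counted in 34 of those 34. Before thinning, T cell wells had a median of 3102 transcripts against 18803 in fibroblast wells. Unthinned, the shares were 66.0% of fibroblast, 66.9% of macrophage and 22.3% of T cell wells for Spp1, and 91.8% of fibroblast, 73.2% of epithelial and 36.9% of T cell wells for Thbs2. For Tgfbi the unthinned shares were 87.6% of macrophage, 34.0% of neutrophil, 31.3% of fibroblast and 6.15% of T cell wells, and for Postn 91.2% of fibroblast and 20.6% of mesothelial wells. Thinned shares of Sparc were 46.9% in T cell wells against 35.0% in macrophage and 28.1% in epithelial wells, so that Sparc in the latter classes stayed under this background.

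Single fibroblast wells differed most in Spp1. It was not counted in 50 of 147 wells, its median well stood at 111 CPM, and 15 wells held 85.5% of its transcripts. Tnc, not counted in 59 wells, had 71.8% of its transcripts in 15 wells, and Mgp, not counted in 19 wells, had 69.8%. Sparc was counted in every fibroblast well, with 38.3% in the top 15 wells, and Fn1 in all but 4, with 40.0%. Postn and Thbs2 lay between, with 49.6% and 48.8%. In macrophage wells Spp1 was also uneven, since 17 of 169 wells held 65.4% of its transcripts, whereas Tgfbi, counted in all but 21 of them, had 44.9% in its top 17 wells. Across the wells of a plate, as a description over 5 plates whose wells differ in depth, Spp1 ran with Tnc (mean Spearman 0.44, from 0.12 to 0.71) and Postn with Sparc (0.41, from 0.10 to 0.68).

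The 147 fibroblast wells fell into a pair of clusters, and most Spp1, Tnc and Mgp sat in 1 of them. Cluster 9 held 81 of them and cluster 12 held 66. The leading genes were read before the wells with Ptprc or Epcam transcripts were removed. Cluster 9, then with 106 wells, was led by Tnc, Tagln, Col8a1 and Spp1. Cluster 12, then with 78 wells, was led by Dpt, Sfrp4, Ptx3 and Pi16, of which Dpt and Pi16 are known from resting or adventitial fibroblasts. Clusters were made without the 9 genes, but from the same wells, so these levels are a description with no test. On the 4 plates with at least 5 wells of both clusters, Spp1 was at 1990 against 44.2 CPM (cluster 9 against 12) on FibCtrl replicate 1, 8157 against 12.1 CPM on FibCtrl replicate 4, 2256 against 0 CPM on FibΔZeb1 replicate 3, and 2923 against 21.2 CPM on FibΔZeb1 replicate 4. Each of these plates thus had its Spp1 in cluster 9.
Over all wells, Tnc stood at 1074 against 123 CPM, Mgp at 7701 against 1023 CPM and Thbs1 at 1657 against 735 CPM. Without FibΔZeb1 replicate 1, Mgp in cluster 9 was at 4650 CPM, and without FibΔZeb1 replicate 4, Tnc in cluster 12 was at 51.4 CPM. Postn (1280 against 1492 CPM), Fn1 (5823 against 6584 CPM), Sparc (13834 against 17079 CPM) and Thbs2 (1318 against 1344 CPM) differed less over all wells, but in opposite directions on single plates. Without FibCtrl replicate 1, Postn in cluster 9 was at 827 CPM. On single plates Postn stood at 2555 against 985 CPM on FibCtrl replicate 1 and at 768 against 2103 CPM on FibΔZeb1 replicate 3. Fn1 stood at 7769 against 3691 CPM on FibCtrl replicate 1 and at 3562 against 9905 CPM on FibCtrl replicate 4, and Thbs2 at 1728 against 589 CPM on FibΔZeb1 replicate 3. Sparc stood at 16422 against 13822 CPM on FibCtrl replicate 1 and at 9117 against 21761 CPM on FibΔZeb1 replicate 4. Dcn was at 1500 against 12877 CPM over all wells. Tnc was less one-sided than Spp1, with 577 against 732 CPM on FibΔZeb1 replicate 4.

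**Figure D3:**
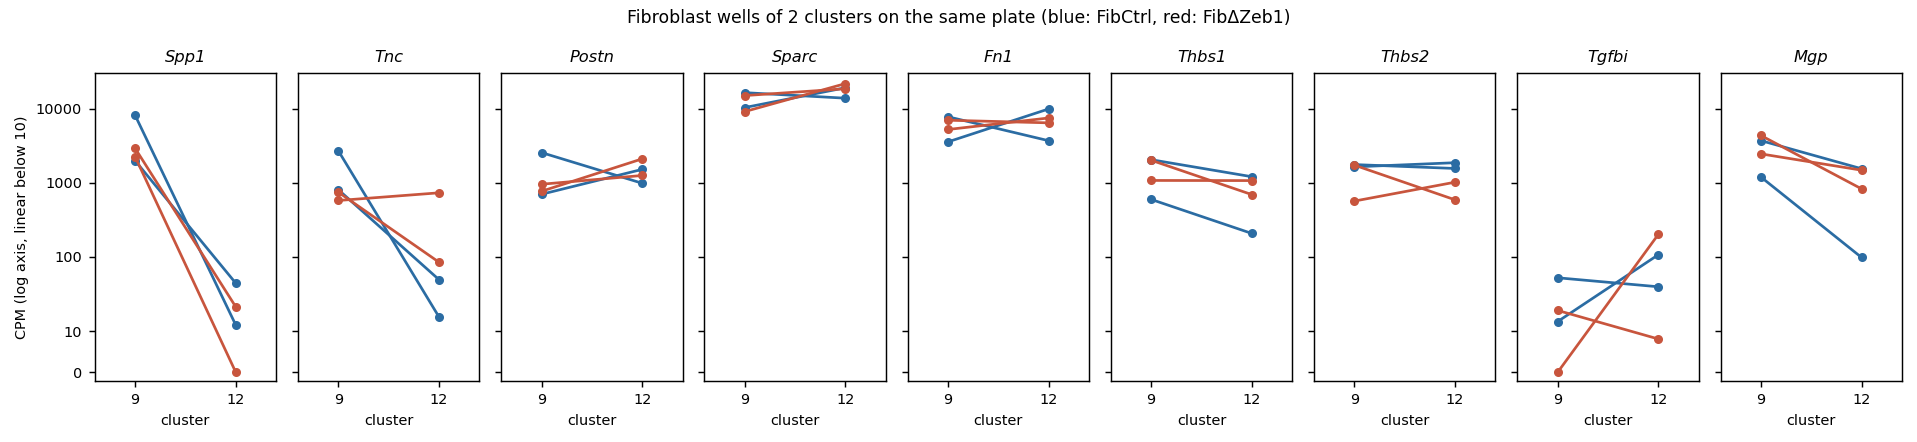
CPM of the 9 genes in fibroblast clusters 9 and 12 (log axis). Lines join the clusters of 1 plate, for the 4 plates with at least 5 wells of both (FibCtrl replicates 1 and 4, FibΔZeb1 replicates 3 and 4). Spp1 lies at 1990 to 8157 CPM in cluster 9 and at 0 to 44.2 CPM in cluster 12. Sparc lies at 9117 to 16422 CPM in cluster 9 and at 13822 to 21761 CPM in cluster 12, and is higher in cluster 9 on FibCtrl replicate 1 only.

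Macrophages also held a pair of clusters with opposite members. Cluster 4, with 148 wells and led by Mmp12, Lyz1 and the complement gene C1qa, had 1696 CPM of Spp1, 1324 CPM of Tgfbi and 3342 CPM of Fn1. Cluster 18, with 21 wells and led by Alox15, Saa3, Serpinb2 and Prg4, had 40.8 CPM of Spp1, 271 CPM of Tgfbi and 14045 CPM of Fn1. Of its wells 15 came from FibCtrl replicate 3, where Fn1 was at 11069 CPM and Thbs1 at 4013 CPM. Without that plate Thbs1 in the cluster was at 693 CPM. Among neutrophils, Tgfbi was highest in cluster 11 (593 CPM, led by S100a8, Retnlg and S100a9), next in cluster 10 (265 CPM, led by Mmp9 and Siglec5) and lowest in cluster 13 (76.6 CPM, or 47.4 CPM without FibCtrl replicate 4, led by Ccl3 and Cxcl3). Thbs1 stood at 1229 CPM in cluster 11, 161 CPM in cluster 10 and 521 CPM in cluster 13. Without FibCtrl replicate 2 it was at 443 CPM in cluster 11 and 268 CPM in cluster 13, and on FibΔZeb1 replicate 3 cluster 11 (187 CPM) lay below cluster 13 (272 CPM).

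Epithelial clusters differed in Thbs2 over all wells, and their order changed between plates. Cluster 5, with 144 wells and led by Rspo3, Rnase1, Sp9 and Twist1, had 1352 CPM, and cluster 8, with 120 wells and led by Tgm3, had 936 CPM, or 501 CPM without FibCtrl replicate 3. Cluster 3, with 165 wells and led by Wfdc2 and Clca4, had 147 CPM, and cluster 16, led by Clca6, Lypd8 and other genes of mature colon epithelium, had 10.7 CPM, with 26 of its 30 wells from FibΔZeb1 replicate 2, without which it had 35.1 CPM. In cluster 5 the plates with at least 5 wells gave 1800, 1756 and 1867 CPM for FibCtrl replicates 1, 2 and 3, and 912, 239 and 876 CPM for FibΔZeb1 replicates 1, 3 and 4. Plates with fewer wells gave 38.2 CPM for FibCtrl replicate 4 (3 wells) and 534 CPM for FibΔZeb1 replicate 2 (4 wells), so the genotypes overlapped over all plates. Cluster 8 lay above cluster 5 on FibCtrl replicate 3 (2388 CPM) and FibΔZeb1 replicate 3 (469 CPM). It lay below cluster 5 on FibΔZeb1 replicate 4 (511 CPM). On FibΔZeb1 replicate 3, cluster 3 was level with cluster 5, at 239 CPM. Over all wells Fn1 stood at 1164 CPM in cluster 3, 469 CPM in cluster 8, 203 CPM in cluster 5 (129 CPM without FibCtrl replicate 1) and 64.0 CPM in cluster 16. Cluster 16 was thus the lowest of the 4, over all wells, in Thbs2, Thbs1 (29.4 CPM) and Fn1 alike. Sparc stood at 216 to 595 CPM over these clusters.

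**Figure D4:**
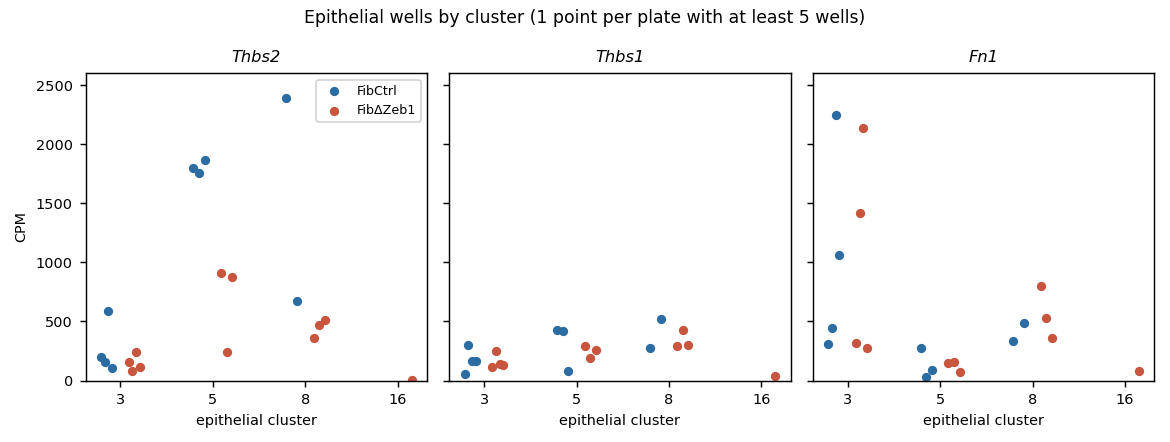
CPM of Thbs2, Thbs1 and Fn1 in the 4 epithelial clusters. Each point is a plate with at least 5 wells of the cluster, coloured by genotype. Thbs2 reaches its highest plates in clusters 5 and 8, and Fn1 in cluster 3. The only plate of cluster 16 is FibΔZeb1 replicate 2, with 26 of its 30 wells.

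Genotype was compared on plates with at least 10 wells of a class, so for fibroblasts FibCtrl replicates 1 and 4 were set against replicates 1, 3 and 4 of FibΔZeb1. Zeb1 itself stood at 91.9 and 83.4 CPM in the FibCtrl and at 43.7, 48.0 and 27.8 CPM in the FibΔZeb1 plates, without overlap, and the fitted difference was -1.14 ± 0.29 (log2 ± SE, edgeR adjusted p = 0.486). These are 3′ counts, and which exons the floxed alleles remove was not given in the sources used here, so a transcript that has lost them could still be counted. In fibroblast wells 0 of the 9 genes passed the test, against 0.0122% of 8198 genes (Aldh1a2 only). At an unadjusted p under 0.05 in edgeR there was 1 of the 9 genes (Thbs2), against 488 of all genes, and DESeq2 also called 0 of the 9. The median difference was -0.08 over the 9 genes and -0.00 over all. The summed fibroblast markers overlapped between the genotypes, at 74662 and 94259 CPM in FibCtrl and 66663 to 77866 CPM in FibΔZeb1.

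Thbs2 and Postn were the members whose fibroblast plates did not overlap, both lower in FibΔZeb1, where 20% of all genes tested had no overlap either. Thbs2 stood at 1647 and 1828 CPM in FibCtrl replicates 1 and 4 and at 915, 1228 and 862 CPM in FibΔZeb1 replicates 1, 3 and 4. The difference was -0.83 ± 0.28 (log2 ± SE, edgeR adjusted p = 0.782). The names of the deposited tables, though not the labels, carry a flow cell, shared by replicates 1 and 2 and another by replicates 3 and 4, and Thbs2 was lower in FibΔZeb1 within each. The FibCtrl plates with 3 and 9 fibroblast wells, left out of the fit, gave 501 and 479 CPM, under the FibΔZeb1 plates of the fit, and the FibΔZeb1 plate left out, with 6 wells, gave 396 CPM. Postn stood at 1662 and 1382 CPM in FibCtrl and at 1318, 1355 and 1151 CPM in FibΔZeb1, a difference of -0.30 ± 0.27 (edgeR adjusted p = 0.993).

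Spp1, Mgp and Tnc had higher means in FibΔZeb1 fibroblasts, and did not pass. Spp1 stood at 884 and 1355 CPM in FibCtrl and at 9517, 1265 and 1019 CPM in FibΔZeb1 (1.77 ± 0.94, edgeR adjusted p = 0.911), with overlap. On the plates of the fit the difference rested on FibΔZeb1 replicate 1, and within the flow cell of replicates 3 and 4 both FibΔZeb1 plates were below the FibCtrl plate. The plates left out gave 3369 and 3256 CPM of Spp1 in FibCtrl replicates 2 and 3 and 9049 CPM in FibΔZeb1 replicate 2. Mgp stood at 2478 and 279 CPM in FibCtrl and at 11960, 2801 and 1815 CPM in FibΔZeb1 (1.94 ± 1.05, edgeR adjusted p = 0.919), higher in FibΔZeb1 within each flow cell. The FibCtrl plates with few wells, replicates 2 and 3, gave 1265 and 12559 CPM of Mgp, the latter above every FibΔZeb1 plate, and FibΔZeb1 replicate 2 gave 12452 CPM.
With the flow cell as a term, Mgp was the only member called, at 2.66 (edgeR adjusted p = 0.0426), among 27 genes called in all. Without the expression filter Mgp and Spp1 were called (edgeR adjusted p = 0.000120 and 0.000451), among 320 genes called in all. The main fit called 1 gene. Tnc stood at 376 and 459 CPM in FibCtrl and at 1232, 457 and 678 CPM in FibΔZeb1 (0.88 ± 0.43, edgeR adjusted p = 0.853). Keeping the wells with Ptprc or Epcam transcripts turned the Tnc difference to -0.03.

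The mix of fibroblast clusters differed between these plates as well. Cluster 9, in which Spp1, Tnc and Mgp are high, made up 44.7% and 23.1% of the fibroblast wells on FibCtrl replicates 1 and 4, and 91.3%, 64.7% and 43.8% on FibΔZeb1 replicates 1, 3 and 4. On the plates left out of the fit it made up 9 of 9 wells on FibCtrl replicate 3, 1 of 3 on FibCtrl replicate 2 and 5 of 6 on FibΔZeb1 replicate 2, so the shares overlapped over all plates. Within cluster 9, Spp1 was at 1990 and 8157 CPM on the FibCtrl plates and at 11025, 2256 and 2923 CPM on the FibΔZeb1 plates. Mgp within cluster 9 was at 3703 and 1197 CPM against 13423, 4346 and 2454 CPM. Both genes overlapped between the genotypes within the cluster, and the part of the cluster mix in the class differences was not tested.

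Sparc, Fn1, Thbs1 and Tgfbi did not pass either, and their plates overlapped. Sparc stood at 14947 and 17677 CPM in FibCtrl and at 13436, 16555 and 17417 CPM in FibΔZeb1 (-0.08 ± 0.31). Fn1 stood at 5452 and 8861 CPM against 4346, 6221 and 6619 CPM (-0.35 ± 0.35). Thbs1 stood at 1569 and 272 CPM against 1870, 1073 and 1147 CPM (0.52 ± 0.65), and its value was 2.31 without FibCtrl replicate 1. Tgfbi was low throughout, at 66.7 and 41.7 CPM against 29.1, 14.2 and 132 CPM (-0.10 ± 0.78).

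**Figure D5:**
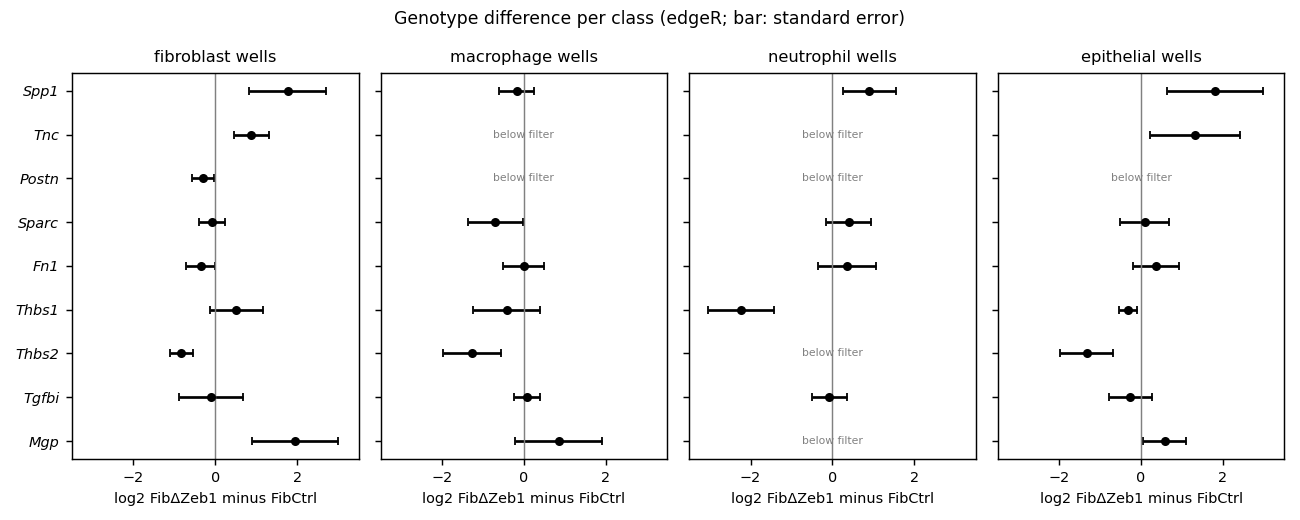
Difference by genotype (FibΔZeb1 minus FibCtrl, log2, ± SE from edgeR) for each member that passed the expression filter in fibroblast, macrophage, neutrophil and epithelial wells. No point passed the adjusted threshold. Thbs2 lies below 0 in fibroblast (-0.83), macrophage (-1.27) and epithelial wells (-1.32), and Thbs1 is lowest in neutrophil wells (-2.23). Macrophage Thbs2, at 6.74% of its fibroblast level, was 0.13 without FibCtrl replicate 1. The neutrophil Thbs1 value rested on FibCtrl replicate 2.

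In the other classes 0 members passed by genotype as well. In macrophage wells 7 members were tested, against 0% of 4463 genes called (0 genes in edgeR, 166 at an unadjusted p under 0.05, and 1 gene in DESeq2). Macrophage Spp1 stood at 2680, 687 and 1519 CPM in FibCtrl replicates 1, 3 and 4 and at 1427, 1935 and 981 CPM in the same FibΔZeb1 replicates (-0.18 ± 0.43), and Tgfbi at 780, 1685 and 1028 CPM against 1141, 1143 and 1512 CPM (0.08 ± 0.32). The plates of the genotypes overlapped for both. The median over the 7 was -0.18, against -0.02 over all genes.
In neutrophil wells 5 members were tested, against 0.0943% of 1060 genes called. Neutrophil Thbs1 stood at 3628, 371 and 296 CPM in FibCtrl replicates 2, 3 and 4 and at 462, 499, 181 and 149 CPM in FibΔZeb1 replicates 1 to 4 (-2.23 ± 0.81, edgeR adjusted p = 0.955). The difference rested on FibCtrl replicate 2, without which it was -0.09, and the other plates overlapped. Without the expression filter Thbs1 was called in neutrophils, at -2.35 (edgeR adjusted p = 0.00100), among 20 genes called in all. The median over the 5 was 0.36, against 0.02 over all genes.
In epithelial wells 8 members were tested, against 0% of 10398 genes called (0 genes in edgeR, 192 at an unadjusted p under 0.05, and 1 gene in DESeq2). Epithelial Thbs2 stood at 1738, 547, 2080 and 360 CPM in FibCtrl and at 848, 141, 380 and 511 CPM in FibΔZeb1 (-1.32 ± 0.65, edgeR adjusted p = 1.0), with overlap. The median over the 8 was 0.23, against 0.00 over all genes.
Whether the genotypes differed by another amount in fibroblasts than in another class was tested directly. For 0 of the 9 genes did this pass between fibroblast and macrophage wells, against 0% of 6793 genes (0 genes in edgeR, 351 at an unadjusted p under 0.05), or between fibroblast and epithelial wells, against 0% of 11994 genes (0 genes in edgeR, 410 at an unadjusted p under 0.05). Mgp had the largest such values, at 2.06 ± 0.66 against macrophages (edgeR adjusted p = 0.822) and 2.39 ± 0.82 against epithelial wells (edgeR adjusted p = 1.0).

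Other matricellular genes were read from a list of 25 written from general knowledge. In fibroblast wells the most abundant were Fbln2 (1366 CPM), a basement membrane and elastic fibre protein, Sparcl1 (875 CPM), a relative of Sparc, and Ctgf (787 CPM) and Cyr61 (769 CPM), CCN family genes induced by YAP signalling. Of the 18 tested between classes, 18 were called higher and 0 lower in fibroblast than in macrophage wells, and 17 higher and 1 lower than in epithelial wells, the latter being Smoc2 (71.1 CPM in fibroblast and 338 CPM in epithelial wells, named after its value was seen). Of all genes tested, 20.3% were higher and 18.0% lower than in macrophage wells, and 21.6% higher and 23.0% lower than in epithelial wells. Against mesothelial wells 3 were higher and 0 lower (1.37% and 2.13% of all genes), and against neutrophil wells 17 were higher and 0 lower (29.4% and 18.2%). Between macrophage and neutrophil wells 1 was higher and 1 lower (15.9% and 8.95%). By genotype in fibroblasts, 19 were tested, 0 were called by edgeR and 6 had an unadjusted p under 0.05, against 488 of all 8198 genes. Their median was -0.21, against -0.00 over all genes.

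Of 17 receptor genes for these proteins, Lrp1 (998 CPM), a scavenger receptor that takes up thrombospondins, Itgb1 (794 CPM), an integrin subunit, Cd44 (391 CPM) and Cd47 (312 CPM) were the most abundant in fibroblast wells. Cd44, a receptor for osteopontin, stood at 1330 CPM in macrophage wells and at 2072 CPM in neutrophil wells. Of 14 tested receptors, 5 were called higher and 4 lower in fibroblast than in macrophage wells, 8 higher and 3 lower than in neutrophil wells, 9 higher and 1 lower than in epithelial wells, and 0 higher and 1 lower than in mesothelial wells. Macrophages exceeded neutrophils in 8 and fell below them in 1. Of all genes tested, 20.3% were higher and 18.0% lower in fibroblast than in macrophage wells, and 29.4% and 18.2% than in neutrophil wells. Against epithelial wells the shares were 21.6% and 23.0%, against mesothelial wells 1.37% and 2.13%, and between macrophages and neutrophils 15.9% and 8.95%. By genotype in fibroblasts, 0 of 13 were called by edgeR, and 2 had an unadjusted p under 0.05, against 488 of all 8198 genes.

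The genes most like each member were found over the 31 sums of the 5 classes and their plates, among 11048 genes, by Spearman correlation of log2 CPM. These sums share plates and depth, and the values are a description. The sums span the classes, so a value also reflects the classes in which both genes are high. Of the genes named here, Col1a1, Col1a2, Col3a1, Mfap5 and Cd68 were among the markers that named the classes. Sparc was most like Col1a1 (0.94), Col1a2 (0.94) and Col3a1 (0.94), and Postn most like Gpx3 (0.93), Mfap5 (0.92) and P4ha3 (0.92). Tnc ran with Bcat1 (0.88), Col12a1 (0.87) and Twist2 (0.84), and Mgp with the basement membrane collagens Col4a1 (0.90) and Col4a2 (0.88) and with Gpr176 (0.85). Tgfbi had the macrophage genes Cd68 (0.91) and Fcgr3 (0.90) and Efhd2 (0.89) next to it. Fn1 was most like Ecm1 (0.90), Adam9 (0.87) and Ahnak (0.86), Spp1 like Tacc1 (0.88), Adcy7 (0.80) and Rhoa (0.76), and Thbs2 like Arhgap42 (0.85), Pcdh19 (0.83) and S100a16 (0.82). Thbs1 had no close neighbour, with App (0.64), Lif (0.62) and Magt1 (0.59) as its nearest. Among the members themselves the highest value was that of Postn and Sparc (0.83) and the lowest that of Thbs2 and Tgfbi (-0.73).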

How the data were processed

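The deposited tables held estimated counts per gene and well, made by the authors with SORT-seq (CEL-Seq2 chemistry, 3′ ends, UMIs), in which reads were mapped with BWA to the GRCm38 transcriptome and UMI counts were corrected for collisions. The submitters' processing notes also list Cell Ranger 2.1.1. The deposited counts were not scaled, and 86.3% of the values above 0 lay within 1e-05 of a whole number. Whether counting used strand is not given in the sources used here. Every plate carried the same 384 barcodes, and each plate was a separate mouse. The p-values by genotype within a class thus measure the spread between mice and plates. Where classes were compared, the plate was a term. Those p-values measure how the differences between classes vary from plate to plate.

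Spike-in features (89, 9.15% of transcripts) and mitochondrial genes (37) were left out. Wells under 500 transcripts were dropped, as were those whose mitochondrial share exceeded the median of their plate by over 3 median absolute deviations. After scaling each well to 10000, 2000 variable genes without the 9 members gave 20 principal components, 15 neighbours and Leiden clusters at resolution 1. Clusters were named from fixed markers, with a score of at least 0.5 and at least 3 markers in 10% of wells, limits set after the data were seen. Unnamed clusters (336 wells) entered no comparison. Fibroblast wells with at least 2 Ptprc or Epcam transcripts (37) were removed, as the study removed such cells. The wells were single-cell sorts, and no doublet caller was run. The study's Welch tests between cells and its batch integration were not used, and neither were sort gates per well.

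Counts were summed per plate and class and rounded. edgeR 4.0.16 (R 4.3.3) with TMM scaling, filterByExpr and its quasi-likelihood test gave two-sided p-values with Benjamini-Hochberg adjustment at 0.05, on plates with at least 10 wells of a class for genotype and at least 5 for classes. Alternatives were DESeq2 1.42.0, relative log expression (RLE) size factors, no expression filter, the flow cell as covariate, the replicate number as a block, other well minimums, classes from summed markers, keeping the removed wells, leaving out each plate, and thinning to 500 transcripts or none. Whether replicate numbers pair the plates was not settled, and the main genotype fits held no pairing term. In epithelial wells the deviations of same-numbered plates correlated at 0.534, 0.258, 0.136 and 0.106. Plates with different numbers were not compared, and same-numbered plates also shared a flow cell. Clustering used Python 3.11.15, numpy 2.4.6, pandas 2.3.3, scipy 1.17.1, scikit-learn 1.9.0, igraph 0.11.9 and leidenalg 0.10.2. Only the genotype fit in fibroblasts was run on simulated data, with the same spread for every gene, which does not show how the fits do at the spread of these data. Text names the 9 members, the 3 genes nearest each (among genes with at least 10 counts in at least 5 sums), the 4 most abundant genes of each list, Zeb1, and collagens with Dcn. The members and lists were chosen with earlier results of these data known. Poisson intervals cover counting error and binomial intervals the sampling of pooled wells, and neither holds the spread between mice. The driver alleles of the organoids are not reported here.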

Additional observations from a re-analysis of the deposited data

Results flagged for a closer look

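Among 45 groups of 4 plates or more, single plates stood far from the rest of their genotype in 8, by Dixon's outlier rule on CPM. The rule flags about 1 in 20 groups only if values are independent and normally distributed. These groups share plates and the distribution of CPM was not tested, so an excess over chance is not shown. Mgp in FibΔZeb1 replicate 1 was at 346 CPM in macrophage wells, against 20.2 to 60.4 CPM on the other FibΔZeb1 plates, and at 693 CPM in neutrophil wells, against 99.9 to 181 CPM, the latter from 30 counts. The same plate had 11960 CPM of Mgp in its fibroblast wells, 91.3% of which belonged to cluster 9. Postn in epithelial wells of FibΔZeb1 replicate 1 was at 14.3 CPM, against 0.623 to 2.36 CPM. In epithelial wells of FibCtrl replicate 1, Sparc was at 723 CPM, against 132 to 223 CPM, and Tnc at 25.7 CPM, against 0.579 to 1.48 CPM. Tgfbi in FibΔZeb1 replicate 4 was at 132 CPM in fibroblast wells, against 14.2 to 29.1 CPM, from 38 counts, and at 1512 CPM in macrophage wells, against 1141 to 1178 CPM. Thbs1 in macrophage wells of FibΔZeb1 replicate 2 was at 7281 CPM, against 430 to 1293 CPM, from 5 wells.

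The wells that were clustered with fibroblasts but removed for Ptprc or Epcam transcripts held 43.9% of all Tnc transcripts in kept wells, nearly as many as the 147 fibroblast wells (44.3%). There were 37 such wells, 32 with Epcam and 9 with Ptprc at the limit, and 22 of them came from FibCtrl replicate 1 and 10 from FibΔZeb1 replicate 1. Their median depth was 35201 transcripts, above the 18803 of fibroblast wells. Tnc stood at 1248 CPM in them and at 1794 CPM on FibCtrl replicate 1, where the fibroblast wells gave 376 CPM. Their Spp1 level was 3397 CPM and their Sparc level 13985 CPM, within the fibroblast ranges. Whether these wells held 1 cell or more was not tested.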

How the results depend on the processing

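Of the counts of calls, 116 between classes stayed within 1.5 times and 4 moved, against 79 and 19 by genotype, and 4 of 4 for the genotype difference between classes stayed. For single members, 491 differences between classes kept direction and side, 23 turned sign, 22 lost and 4 gained a call, against 315, 39, 0 and 4 by genotype. Shares of wells moved in 69 of 90 settings of thinning. The cause of any change was not tested. By genotype in fibroblasts, genes called went from 1 to 37 with DESeq2, 27 with the flow cell, 320 without the filter, 0 with Ptprc or Epcam wells kept and 0 to 4 leaving out a plate, and members called from 0 to 1 with the flow cell and 2 without the filter. Macrophage genes went from 0 to 1 with DESeq2, 39 without the filter and 0 to 1 leaving out a plate. Neutrophil genes went from 1 to 20 without the filter (1 member) and 1 to 6 leaving out a plate, with 6 without FibCtrl replicate 2. Epithelial genes went from 0 to 1 with DESeq2. Between fibroblast and mesothelial wells, genes called went from 321 to 132 with at least 10 wells, and to 115 without FibCtrl replicate 3 and 147 without FibΔZeb1 replicate 4 (range 115 to 322 over plates left out). Members called there went from 3 to 5 with summed markers and 3 to 4 leaving out a plate. Between macrophages and neutrophils 4 to 7 members were called leaving out a plate (6 with all), with Postn added without FibCtrl replicate 1 (-1.81), and Thbs1 was not called with at least 10 wells (1.18) or summed markers (1.03).

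With the replicate number as a block, 16 genes and 0 members were called in fibroblasts (Mgp at 2.46, adjusted p = 0.0886 in edgeR), 0 genes in macrophages, 1 in neutrophils and 0 in epithelial wells. Same-numbered plates correlated at 0.306 and 0.186 in fibroblasts (2 pairs), at 0.0521, -0.0288 and 0.0894 in macrophages and at 0.0993, -0.284 and 0.430 in neutrophils. With few pairs and a shared flow cell, these values do not decide whether the numbers pair the plates in any class. The block turned Tgfbi to 0.20 in fibroblasts and Thbs1 to 0.47 in macrophages.

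The other sign changes, all of uncalled values (log2), were these. By genotype in fibroblasts, Sparc was 0.058 with summed markers, Tnc -0.0250 with Ptprc or Epcam wells kept, and Tgfbi 0.065 with DESeq2, 0.013 with at least 5 wells, 0.11 with summed markers and 0.15 with those wells kept. Fn1 was 0.000197 in macrophages with DESeq2 and Tgfbi 0.046 in neutrophils with the flow cell. Fibroblasts against mesothelial wells gave Fn1 -0.020, Tgfbi 0.32 and Tnc -0.48 with at least 10 wells, and Sparc 0.014 with DESeq2, 0.020 with RLE and 0.67 with summed markers. Against macrophages Thbs1 was 0.075 with DESeq2, 0.080 with RLE, 0.79 with at least 10 wells and 0.48 with summed markers. Leaving out a plate by genotype gave, in epithelial wells, Fn1 -0.085 to 0.72, Sparc -0.43 to 0.87 and Tgfbi -0.72 to 0.016; in fibroblasts, Fn1 -0.64 to 0.038, Sparc -0.18 to 0.046, Tgfbi -1.37 to 0.42 and Thbs1 -0.24 to 2.31; in macrophages, Fn1 -0.66 to 0.42, Mgp -1.92 to 2.27, Sparc -1.39 to 0.55, Spp1 -0.53 to 0.42, Tgfbi -0.12 to 0.50, Thbs1 -0.97 to 1.66 and Thbs2 -1.74 to 0.13; and in neutrophils, Fn1 -0.12 to 2.24 and Tgfbi -0.42 to 0.28. Between classes it gave, against mesothelial wells, Mgp -1.43 to 1.43, Sparc -0.45 to 0.19 and Tgfbi -0.54 to 0.15, and against macrophages Thbs1 -0.43 to 0.59. Where this left 1 plate in a group, that plate was assumed to vary like the others. Depth limited neutrophil wells most (median 1889 transcripts), where 5 members could be tested by genotype, and mesothelial wells gave no genotype comparison with 2 plates of 5 wells or more.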

Other observations

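After thinning to 1000 transcripts, detection of members per fibroblast well was read by genotype, as values without a test because wells of a plate are not replicates. Spp1 was counted in 25% of 84 FibCtrl wells and 45.0% of 60 FibΔZeb1 wells, Thbs1 in 28.6% and 55.0% and Mgp in 48.8% and 70.0%. Postn was counted in 63.1% of FibCtrl and 46.7% of FibΔZeb1 wells. Pericyte wells, where Postn was above the highest fibroblast plate, held means of 10479 CPM of Sparc, 6666 CPM of Fn1, 4983 CPM of Mgp and 298 CPM of Tnc on their 2 plates.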
